A study of Mus musculus with 27 samples.

Results

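The spleen of the NOD mouse was compared between 8 and 12 weeks of age through the ratio of its RNA to that of NOD.B10. The comparison used every array of these ages, 8 of the 27 in the series: 3 at 8 weeks and 5 at 12 weeks. Each array carried spleen RNA of NOD/LtJ, labelled with the green dye Cy3, against NOD.B10Sn-H2b/J, labelled with the red dye Cy5, and the measured value was log2 of green over red. NOD is an inbred strain that becomes diabetic by autoimmunity. NOD.B10 has the same background but carries the H2b haplotype of the major histocompatibility complex (MHC), and served as the control. All mice were female, and no treatment was named. A ratio can change because the NOD dye moved or because the reference dye moved. The design text lists control mice of 2 ages only, 10 days and 20 weeks, with 10 mice at each age. The labels used here do not give the age of the reference RNA on the 8-week and 12-week arrays, or whether reference or NOD mice were pooled. No array had the dyes swapped. The NOD channel is marked diabetic at every age, so that label separates nothing here.

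The spleen filters blood and holds most of the resting B and T cells of the body outside the lymph nodes. Its red pulp contains macrophages that recycle the iron of old red cells, and in the mouse it also makes red cells, granulocytes and platelets throughout life. In NOD females, immune cells enter the pancreatic islets weeks before the blood glucose rises. Changes in dividing cells, red cell precursors, macrophages and activated lymphocytes are therefore the groups that a spleen profile can report. Each array measured a whole spleen extract, so fewer cells of a type and less RNA per cell cannot be told apart.

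Of 41174 probes on the array, 35812 were kept, and they stood for 25148 genes, 18124 of them with a symbol. The median signal of the 8 arrays ran from 189.0 to 386.6 in the green dye and from 191.8 to 394.5 in the red. The share of spots above background was 65.0% to 94.2% in green and 51.8% to 79.2% in red. The B cell markers Cd79a and Ms4a1, the T cell markers Cd3e, Cd3g, Cd4 and Cd8a, and the red pulp macrophage markers Spic, Vcam1 and Slc40a1 exceeded the background on every one of the 8 arrays, in green and in red. Genes of the exocrine pancreas, which lies against the spleen, were also present: in the reference dye their summed signal, relative to the 75th percentile of the array, was 1090 to 2210 at 8 weeks and 38.5 to 66.1 at 12 weeks. The NOD dye gave 29.0 to 183 and 8.82 to 263. The reference sums did not overlap between the ages, so the reference RNA may not have been the same on the 8-week and 12-week arrays. Its part in any ratio or reference dye change below was not tested. The insulin and glucagon genes were near background, and the summed endocrine list was at most 5.76 in either dye. The labels do not say that arrays of an age came from separate animals, so p-values measure spread between arrays. Unless stated otherwise, that spread was taken within each age over the whole series. The 8 arrays were read on different scanners. 8-week replicate 2 and 12-week replicates 3 and 4 were read on 1 instrument, called scanner 2, with 16 days between the ages. The other 5 arrays were read on scanner 3, and the 2 ages shared no scan day. A scan campaign is a run of scan days on 1 scanner, each at most 20 days after the last. On scanner 3 the ages fell in different campaigns, so age and campaign cannot be told apart there. 8-week replicate 3 was extracted with software version 9.1.3.1 and the other 7 arrays with 8.5.1.1.

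From 8 to 12 weeks, 4419 of 25148 genes (17.6%) changed in the ratio at an adjusted p under 0.05 (limma over all 27 arrays, with Benjamini-Hochberg adjustment). Of these, 2209 (8.78%) were higher and 2210 (8.79%) lower at 12 weeks, and the median size of a change was 0.72 on the log2 scale. The median change over all genes was 0.03. At least 1 log2 unit separated the ages for 1138 genes, 441 of them higher and 697 lower. The 8-week and 12-week arrays did not overlap for 6720 genes (26.7%), 4018 of which passed the test. The number that changed was 2566 without 8-week replicate 2. In the ratio, 27 of 33 erythroid genes and 36 of 36 S phase genes fell, and 17 of 38 early response genes and 12 of 26 macrophage genes rose.

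The genes with the highest and the lowest change were taken from those measured in both dyes on all 8 arrays, with no overlap between the ages and the same sign within scanner 2. Among the 12 lowest, Apol10a and Apol10b, of the apolipoprotein L family, stood first. The Apol10a ratio was 1.15, 0.25 and -0.15 at 8 weeks and -2.17, -3.75, -1.57, -2.80 and -4.89 at 12 weeks. Its change was -3.45 ± 0.48 (SE, n = 3 and 5, adjusted p = 6e-05). Each SE given is from limma, which pools the spread within ages over the arrays of every age in the series. It is therefore not the spread of the 8-week and 12-week arrays alone. The Apol10b ratio was 1.90, 0.97 and 0.68, and then -1.16, -2.85, -1.12, -2.63 and -3.44, a change of -3.42 ± 0.45 (adjusted p = 3.6e-05). All 5 arrays at 12 weeks lay below all 3 at 8 weeks for both genes, and the spread at 12 weeks was wide. H1f5, a linker histone of dividing cells, had ratios of -0.26, 0.95 and -0.12 and then -2.33, -2.78, -2.80, -3.79 and -4.41, a fall of 3.41 on the log2 scale with an SE of 0.41 (adjusted p = 1.9e-05).

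Trim37, a ubiquitin ligase, went from 0.11, 1.27 and 0.46 to -2.001, -2.024, -1.918, -2.073 and -2.602 (change -2.74 ± 0.26, adjusted p = 2.2e-06). Among its 12-week values replicate 5 was the lowest, and its 3 probes disagreed, with changes from -2.74 to -0.04. Add2, the beta-adducin of the red cell membrane skeleton, went from 0.20, 1.07 and 0.55 to -0.47, -1.05, -1.57, -2.72 and -3.28 (change -2.43 ± 0.43, adjusted p = 0.00054), and all 4 of its probes fell, by 1.21 to 2.43. Redrum had ratios of 0.11, 0.54 and 0.04 and then -0.72, -1.44, -1.91, -3.72 and -4.31. The order of its 12-week arrays was that of Add2. The other 6 of the lowest were Tcf15, a transcription factor of somites (-2.44), Sdsl, a serine dehydratase-like enzyme (-2.40), Fn3k, which removes sugar from glycated proteins (-2.39), C1qtnf12, a secreted adipokine (-2.38), Mageb16, of the MAGE family (-2.36), and Aldh1a7, an aldehyde dehydrogenase (-2.35).

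Among the 12 highest, Ighg1, the constant region of the IgG1 heavy chain, had the largest change. Its ratio was -1.06, -2.18 and -2.17 at 8 weeks and 1.65, 1.30, 0.85, 0.85 and 1.11 at 12 weeks (change 2.95 ± 0.74, adjusted p = 0.0069), and its 4 probes gave changes from 1.02 to 2.95. Clec2d, a lectin that inhibitory receptors of natural killer (NK) cells bind, went from 0.52, -0.73 and -1.12 to 2.34, 2.41, 1.77, 1.95 and 2.23 (change 2.58 ± 0.30, adjusted p = 1.2e-05). Ptpn22, a phosphatase that restrains antigen receptor signalling, went from -1.35, -1.94 and -1.49 to -0.04, 0.32, 1.71, 0.59 and 0.37 (change 2.18 ± 0.46, adjusted p = 0.0021). The ages were apart for all 3 genes, and each changed at least 4-fold.

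Rgs1, which damps chemokine receptor signals in lymphocytes, had ratios of -1.31, -2.49 and -2.13 and then 0.16, 0.10, 0.52, 0.52 and 0.39 (change 2.32 ± 0.47, adjusted p = 0.0016). Ccl24, an eosinophil-attracting chemokine, had ratios of 0.48, 0.11 and 0.07 and then 2.16, 1.83, 2.12, 2.68 and 2.92 (change 2.12 ± 0.63, adjusted p = 0.021). Il1r2, the decoy receptor of interleukin 1, had ratios of -2.92, -2.22 and -2.19 and then -0.85, -0.34, 1.39, -0.18 and -0.28, with 12-week replicate 3 the highest. Cirbp, a cold-inducible RNA-binding protein, had ratios of -1.41, -1.04 and -1.50 and then 0.66, 0.84, 0.73, 0.76 and 0.64 (change 2.04 ± 0.43, adjusted p = 0.002). Within each age, the Cirbp values lay close together. Others among them were Slc23a1, a vitamin C transporter (2.67), Trnp1 (2.44), the dynein heavy chain gene Dnah2 (2.26) and Inhbb, a subunit of inhibin and activin (2.07). For Dnah2 and Inhbb the second probe changed by only 0.04 and 0.18.

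**Figure D1:**
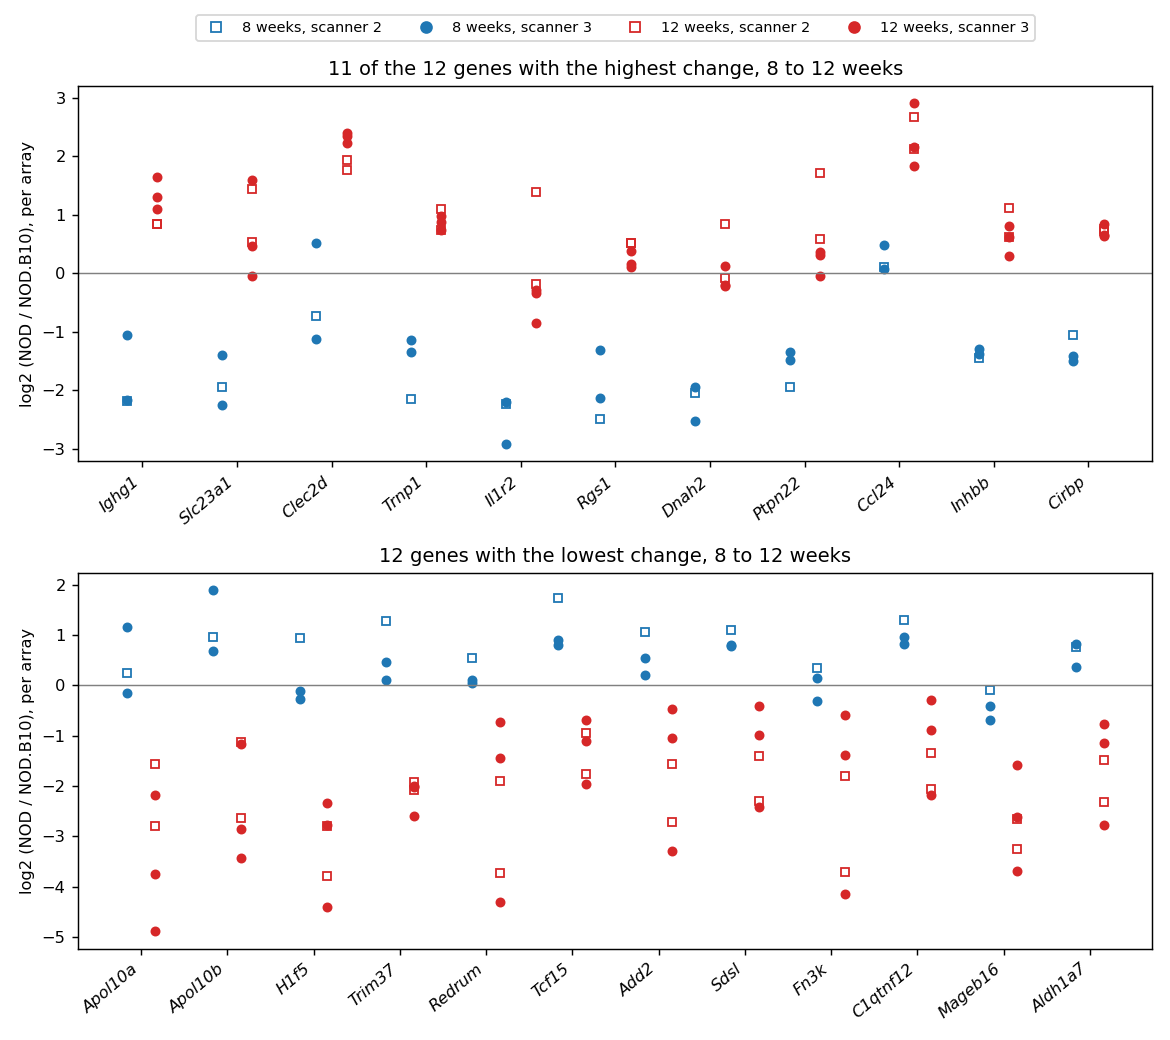
The log2 ratio of NOD to NOD.B10 on each of the 8 arrays, for 11 of the 12 genes with the highest change (top) and the 12 with the lowest (bottom). Blue marks 8 weeks and red 12 weeks, with open squares for scanner 2 and filled circles for scanner 3; the ages do not overlap for any of the 23 genes, as the choice of genes required.

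The dye that moved was not the same for all genes. Each dye was scaled by its own 75th percentile on the array. All genes together shifted by -0.09 in the NOD dye and -0.19 in the reference dye, and changes in 1 dye are given relative to these shifts. The adjusted p-values of limma in 1 dye test the change before its shift is subtracted. Under this scaling a fall as given therefore passes more easily than a rise of the same size and spread. The reference dye had 1546 genes (6.15%) that passed the test, 740 (2.94%) higher and 806 (3.21%) lower. The NOD dye had 44 such genes (0.175%), 20 (0.0795%) higher and 24 (0.0954%) lower. The NOD count was 5 without 8-week replicate 2 or 3, 13, 17 and 27 without 12-week replicates 3, 4 and 2, and 88 without 12-week replicate 1. The reference count was 996 without 8-week replicate 3. With each dye scaled on the median in place of the 75th percentile, 386 genes passed in the reference dye and 14 in the NOD dye. The 386 were 274 higher and 112 lower. With the 75th percentile and an unadjusted p under 0.05, 1393 genes rose and 1674 fell in the NOD dye. In the reference dye 1926 rose and 3173 fell at that p. Of the 4419 genes that changed in the ratio, 782 passed in the reference dye only, 33 in the NOD dye only, 6 in both and 3598 in neither. These fits hold no term for the scanner. With the scanner as a block, 546 genes passed in the NOD dye and 5702 in the reference dye, and with the scan campaign as a block 263 and 2394.

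By size alone, the reference dye made the larger part of the change for 48.1% of the 4419 genes and for 47.3% relative to all genes. The split by direction depended on the all-gene shift. Relative to all genes, the reference dye was the larger part for 64.4% of the genes with a lower ratio and for 30.3% of those with a higher ratio, and without subtracting the shift these shares were 50.5% and 45.6%. Among arrays of 12 weeks read on the same day, reference profiles correlated at 0.99 to 0.992 over all genes and NOD profiles at 0.957 to 0.975. Among these same-day arrays, the reference profiles were thus more alike than the NOD profiles. The labels do not say whether these arrays shared a reference RNA. The p-values in the reference dye rest on the spread within ages over the arrays of every age, with no term for the scanner. They measure only spread between arrays, which need not be spread between separate reference RNAs. Whether the greater likeness of the same-day reference profiles bears on the number of genes that passed in each dye was not tested.

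Apol10a rose in the reference dye by 3.09 ± 0.26 (adjusted p = 2.9e-08), Apol10b by 3.01 ± 0.30 (adjusted p = 6.6e-07) and Aldh1a7 by 2.28 ± 0.14 (adjusted p = 1.3e-10), while the NOD dye changes were -0.43, -0.49 and -0.13. Tcf15 and C1qtnf12 rose in the reference dye by 2.004 and 1.807 (adjusted p = 0.00014 and 0.00036). Il1r2 fell there by 2.44, Trnp1 by 2.41, Clec2d by 1.81, Inhbb by 1.76, Dnah2 by 1.38 and Ptpn22 by 1.34, with adjusted p from 7.4e-09 to 0.00033. The NOD dye changes of these 11 genes lay between -0.64 and 0.82 and did not pass. With median scaling, all 11 still passed in the reference dye.

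A smaller group moved in the NOD dye. Rgs1 rose there by 2.84 ± 0.49 (adjusted p = 0.016, 0.017 with median scaling), against 0.59 in the reference dye (adjusted p = 0.24). Trim37 fell there by 1.94 ± 0.33 (adjusted p = 0.0096, 0.089 with median scaling), against 0.87 in the reference dye (adjusted p = 0.26). H1f5 fell in the NOD dye by 2.18 (adjusted p = 0.047) and rose in the reference dye by 1.30 (adjusted p = 0.016), and neither passed with median scaling (adjusted p = 0.14 and 0.11). Ighg1 and Ccl24 had NOD dye changes as large as that of Rgs1, at 2.93 ± 0.80 (adjusted p = 0.13) and 2.81 ± 0.62 (adjusted p = 0.064), but did not pass. Their reference dye changes were 0.05 and 0.76.

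**Figure D2:**
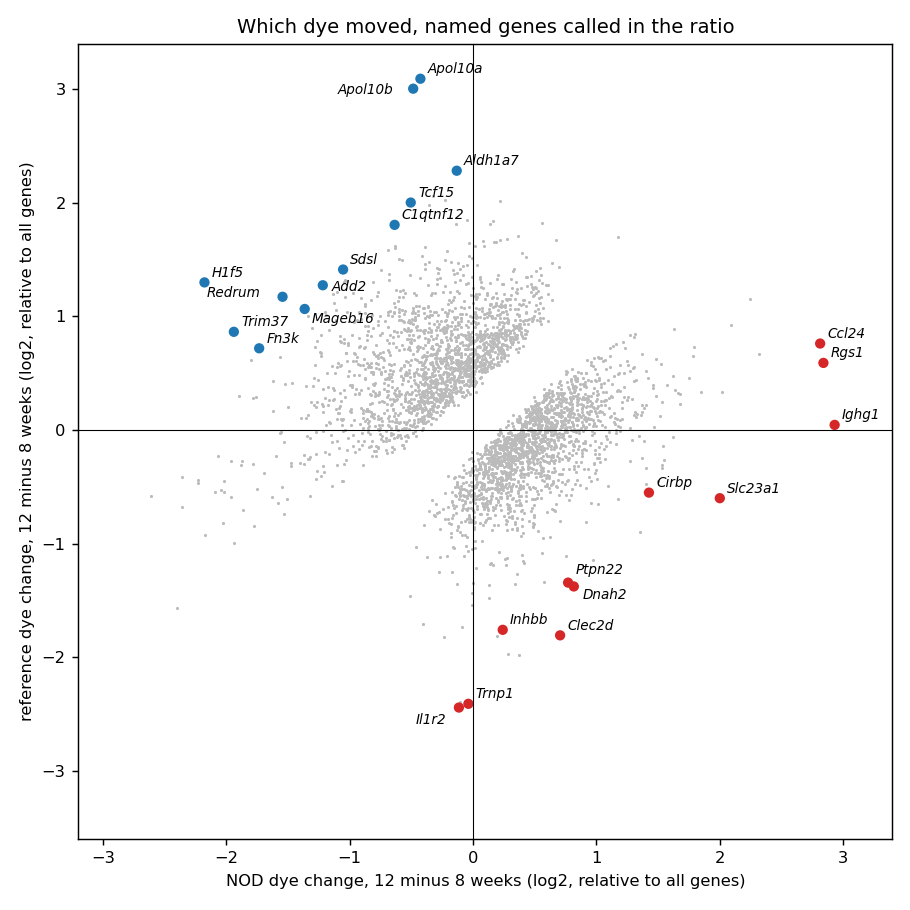
Change from 8 to 12 weeks in the NOD dye (horizontal axis, log2, relative to all genes) against the reference dye (vertical axis, same unit), for the 3658 named genes that changed in the ratio, of which 4 lie outside the axes; red and blue points are 11 of the 12 highest and the 12 lowest genes. Apol10a, Aldh1a7, Trnp1 and Il1r2 lie near the vertical axis, where the reference dye moved, and Rgs1, Ighg1 and Ccl24 lie to the right, where the NOD dye moved.

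The arrays were then compared within a scanner. On scanner 2, 12-week replicates 3 and 4 were set against 8-week replicate 2, whose spread is assumed to be that of the other groups. On this scanner 876 genes (3.48%) changed, 450 (1.79%) of them higher and 426 (1.69%) lower, and 184 or 86 did without 12-week replicate 3 or 4. On scanner 3, with 3 arrays against 2, 1284 genes (5.11%) changed, 678 (2.7%) higher and 606 (2.41%) lower. These contrasts use different arrays. On scanner 3 age cannot be told apart from the scan campaign. Only the campaign of scanner 2 held both ages, so a campaign block takes the age change from the same arrays as scanner 2. The campaign block is therefore not a second check beside scanner 2. Of the genes called on scanner 3, 1212 (94.4%) had the same sign on scanner 2, and of those called on scanner 2, 807 (92.1%) had the same sign on scanner 3, against 68.8% over all 25142 genes with both values. Both scanners called 416 genes, which is 32.4% of the scanner 3 calls and 47.5% of the scanner 2 calls, and 415 of them had the same sign. The correlation of the 2 contrasts across genes was 0.47, where genes are not independent replicates.

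For the 24 genes, Apol10a changed by -2.44 on scanner 2 and -4.11 on scanner 3, and Apol10b by -2.84 and -3.78. H1f5 changed by -4.24 and -2.98, and Ptpn22 by 3.09 and 1.63. Ighg1 was alike on both, at 3.03 and 2.97, as was Clec2d, at 2.59 and 2.62. On scanner 2, Apol10a changed by 2.41 in the reference dye and -0.07 in the NOD dye, Aldh1a7 by 2.03 and -0.68, Trnp1 by -2.03 and 1.01 and Il1r2 by -2.07 and 0.72. Rgs1 changed by 3.47 in the NOD dye and 0.50 in the reference dye on scanner 2, and Ighg1 by 3.17 and 0.18. Ptpn22, Dnah2, Add2 and Sdsl had the larger change in the reference dye over all arrays and in the NOD dye on scanner 2, where the NOD dye changes were 1.75, 1.40, -2.01 and -1.58 and those of the reference dye -1.29, -0.98, 1.25 and 1.42. Over the 4419 genes, the reference dye was the larger part for 38.6% on scanner 2, against 48.1% over all arrays. Both shares were taken without subtracting the all-gene shift.

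**Figure D3:**
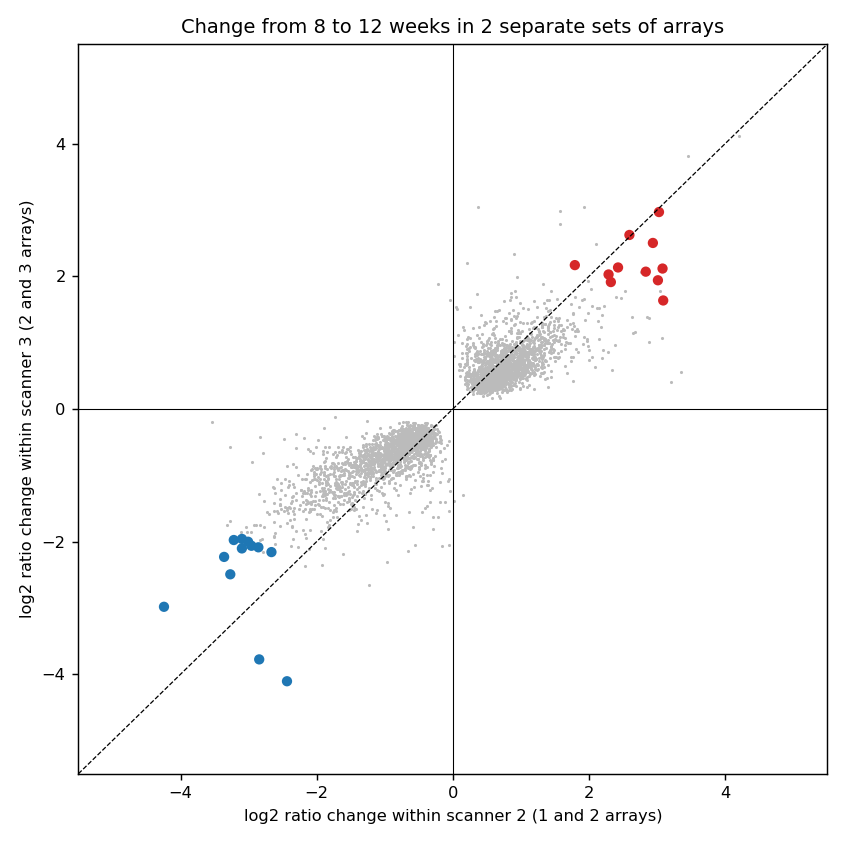
Change of the log2 ratio from 8 to 12 weeks within scanner 2 (1 and 2 arrays, horizontal axis) and within scanner 3 (2 and 3 arrays, vertical axis), for the named genes that changed over all arrays, with 23 of the 24 most changed genes in colour and the line of equal change dashed. All 23 lie in the 2 quadrants of equal sign, which the choice of genes required on scanner 2.

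The ratio of red cell genes fell. Of 33 erythroid genes tested, 27 fell and none rose, with a median change of -1.65, and all 33 values were negative. The share called was 81.8%, against 17.6% of all genes. Sptb, the beta-spectrin under the red cell membrane, had ratios of -0.12, 0.56 and 0.23 at 8 weeks and -0.83, -1.29, -1.85, -2.60 and -4.18 at 12 weeks (change -2.37 ± 0.46, adjusted p = 0.0011). Kel, the Kell blood group protein, had ratios of 0.34, 0.73 and 0.38 and then -0.336, -1.004, -1.368, -2.832 and -3.514 (change -2.29 ± 0.48, adjusted p = 0.002). Klf1, a master transcription factor of red cell precursors, had ratios of 0.33, 0.69 and 0.18 and then -0.17, -1.04, -1.47, -2.82 and -3.27 (change -2.15 ± 0.49, adjusted p = 0.0033). For all 3 genes the 12-week arrays spread over more than 2 log2 units, with replicate 1 near the 8-week values and replicate 5 farthest from them. The anion exchanger gene Slc4a1 changed by -1.87, the transferrin receptor gene Tfrc by -1.65 and Gata1 by -1.45. The alpha-globin gene Hba-a1 did not pass (-0.71 ± 0.37, adjusted p = 0.22), and its spots were saturated in 10 of the 16 dye readings.

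The spread at 12 weeks bears on how firmly the erythroid fall can be stated. With only the 8 arrays in the fit, 5 of the 33 genes passed. Within scanner 2 and within scanner 3, 6 passed on each, and the list medians were -2.35 and -1.32. Leaving out 1 array gave at least 20. The list's median ratio was -0.18, 0.54 and 0.15 on the 8-week arrays and -0.25, -0.87, -1.26, -2.35 and -3.01 on the 12-week arrays. In the NOD dye, relative to the array's median over all genes, the list's median was 4.63, 3.73 and 4.65 and then 4.98, 4.48, 2.86, 1.98 and 2.25, so replicates 3, 4 and 5 were low and replicates 1 and 2 were not. The reference dye had it at 4.75, 3.23 and 4.20 and then 5.32, 5.34, 4.18, 4.26 and 5.44, which within each scanner was higher at 12 weeks. Relative to all genes, the list's median change was -0.995 in the NOD dye and 0.75 in the reference dye. No member passed in the NOD dye by limma (21 fell at an unadjusted p under 0.05, against 1674 of 25148 genes). In the reference dye 11 rose (5 with median scaling) and 2 fell, against 2.94% and 3.21% of all genes. Kel rose in the reference dye by 1.32 (adjusted p = 0.0011) and Rhd by 1.31 (adjusted p = 0.0036).

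Heme synthesis, which red cell precursors need for hemoglobin, went the same way. Of its 9 enzymes, 6 fell (66.7%, against 17.6% of all genes called), and the median change was -1.44. Alad, the second enzyme of the pathway, changed by -1.86 ± 0.34 (adjusted p = 0.00062), although its other probe gave 0.09. Cpox changed by -1.81, Uros by -1.64 and Alas2, the erythroid form of the first enzyme, by -1.44. Alas1, the form of other tissues, did not pass (0.23). With only the 8 arrays 2 of the 9 passed, and without 8-week replicate 2, 3 passed.

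Promoters of erythroid genes are shown for the GATA motif, which the red cell factor Gata1 binds. The motif was searched as AGATAA or TGATAA on both strands, in the 250 bases before each gene's start in the RefSeq promoter table (GRCm38.p6). These 2 forms share their last 5 bases and cannot both match at 1 position. It was present for 14 of 24 erythroid members in the table (58.3%), against 5092 of 27025 genes (18.8%). Of the members that changed most and held a match in the last 150 bases, Kel lies at chr6:41704326-41704475 on the minus strand and Rhd at chr4:134864386-134864535 on the plus strand. Each sequence is 5' to 3', ends at the base before the start, and has the motif in capitals.
Kel: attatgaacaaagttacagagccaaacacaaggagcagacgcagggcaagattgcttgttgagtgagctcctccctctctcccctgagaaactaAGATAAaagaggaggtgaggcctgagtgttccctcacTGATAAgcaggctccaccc
Rhd: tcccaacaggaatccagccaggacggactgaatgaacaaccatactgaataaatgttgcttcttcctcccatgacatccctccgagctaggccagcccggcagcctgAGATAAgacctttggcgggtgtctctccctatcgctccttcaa
The Kel window holds 2 matches, the first of them beginning 56 bases before the start, and the Rhd match begins 43 bases before it. A match is a description of the sequence and not evidence of binding. For heme synthesis, 3 of 7 promoters held the motif (42.9%), and for macrophage genes 4 of 20 (20.0%).

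All 36 S phase genes tested, which copy the DNA, had a lower ratio at 12 weeks, with a median change of -1.42. Chaf1a, of the factor that places histones on new DNA, went from 0.27, 0.93 and 0.65 to -0.74, -1.23, -1.64, -2.12 and -2.52 (change -2.27 ± 0.32, adjusted p = 5.3e-05). Mcm2, a subunit of the replicative helicase, went from 0.54, 1.22 and 0.62 to -0.26, -0.73, -0.90, -1.54 and -1.76 (change -1.83 ± 0.30, adjusted p = 0.00029). Cdc6, which loads that helicase, went from 0.44, 0.84 and 0.63 to -0.14, -0.70, -1.10, -2.11 and -2.70 (change -1.98 ± 0.41, adjusted p = 0.0018). The ages did not overlap for 33 of the 36 genes, against 26.7% of all genes and 4018 of the 4419 that changed in the ratio. The sliding clamp gene Pcna changed by -1.23, the ribonucleotide reductase genes Rrm1 and Rrm2 by -1.69 each, and Ung, at the small end, by -0.61.

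Leaving out 1 array left at least 31 of the 36 S phase genes, and 27 passed with only the 8 arrays. Within scanner 2, 15 passed with a list median of -1.90, and within scanner 3, 11 passed with a median of -1.24. The reference dye carried most of the change. It was the larger part for 35 of 36 genes, with a median of 1.09 against -0.32 in the NOD dye, and 22 genes rose in the reference dye (11 with median scaling, 32 with the scan campaign as a block). Over all genes, 2.94% rose in the reference dye. None of the 36 passed in the NOD dye by limma (2 fell at an unadjusted p under 0.05, against 1674 of 25148 genes). Mcm2 rose in the reference dye by 1.85 ± 0.23 (adjusted p = 3.9e-05), with a NOD dye change of -0.05. The list's median in the reference dye on scanner 2 was 2.57 at 8 weeks and 4.28 and 4.14 at 12 weeks. On scanner 3 it was 3.53 and 3.45 at 8 weeks and 4.82, 4.74 and 5.04 at 12 weeks. The NOD dye had the list at 4.03, 3.35 and 3.80 and then 4.41, 4.03, 2.82, 2.32 and 2.74, so replicates 1 and 2 at 12 weeks were as high as the 8-week arrays.

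Replication genes are classic targets of E2F factors, and their promoters were searched for TTTCCCGC or TTTGGCGC, on both strands; these 2 forms cannot match at the same position. The motif was present for 6 of 29 S phase genes (20.7%), against 407 of 27025 genes (1.51%). The members shown changed most among those with a match in the last 150 bases: Cdc6 at chr11:98908001-98908150 and Mcm5 at chr8:75109359-75109508, both on the plus strand, and Pola1, of DNA polymerase alpha, at chrX:93632156-93632305 on the minus strand (GRCm38.p6, motif in capitals).
Cdc6: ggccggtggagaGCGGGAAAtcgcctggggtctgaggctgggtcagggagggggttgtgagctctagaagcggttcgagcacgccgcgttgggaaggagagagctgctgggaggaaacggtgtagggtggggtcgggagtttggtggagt
Mcm5: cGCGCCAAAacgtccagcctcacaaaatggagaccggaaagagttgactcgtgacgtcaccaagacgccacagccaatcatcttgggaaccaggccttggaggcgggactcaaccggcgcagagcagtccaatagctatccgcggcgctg
Pola1: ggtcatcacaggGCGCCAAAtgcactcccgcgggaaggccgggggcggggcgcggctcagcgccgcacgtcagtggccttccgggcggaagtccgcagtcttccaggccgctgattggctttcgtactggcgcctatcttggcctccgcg
The match begins 138 bases before the start in Cdc6 and Pola1 and 149 bases before it in Mcm5, and in all 3 it is on the strand opposite to the letters as listed. The ratio changes of Mcm5 and Pola1 were -1.74 and -1.73. Of the G2 and M phase genes, 0 of 31 promoters held this motif, and of the repair genes 2 of 14 (14.3%). The cell cycle homology element TTTGAA, on both strands, was present for 12 of 31 G2 and M phase genes (38.7%), 5 of 29 S phase genes (17.2%) and 18.3% of all genes.

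Most genes of mitosis fell as well. Of 36 G2 and M phase genes, 25 fell and none rose, a share of 69.4% against 17.6% of all genes, and the median change was -1.14. Mki67, the proliferation antigen, had ratios of -0.27, 0.34 and -0.25 and then -0.59, -1.28, -1.57, -2.83 and -3.28 (change -1.85 ± 0.39, adjusted p = 0.002). Ccna2, cyclin A2, changed by -1.61, the centromere motor gene Cenpe by -1.60, Cdk1 by -1.40 and the topoisomerase gene Top2a by -1.42. As for the erythroid genes, replicate 1 was nearest to the 8-week values and replicate 5 farthest. With only the 8 arrays 4 passed, and without 8-week replicate 2, 14 passed. Within scanner 2, 2 passed, and within scanner 3, 1 passed. In the reference dye 8 rose, against 2.94% of all genes. In the NOD dye none passed by limma (11 fell at an unadjusted p under 0.05, against 1674 of 25148 genes).

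The replication-dependent histones, made in S phase, and the repair genes completed this group. Of 18 histone genes tested, 11 fell and none rose (median -0.99), with H2ac8 at -1.81 and H1f3 at -1.54 after H1f5. The NOD dye was the larger part for 14 of the 18. Histone genes are near copies of each other, so a probe may read more than 1 of them. Of 20 genes of mismatch, homologous and excision repair, 13 fell (median -1.01), among them Rad54l (-1.76, with its other probe at 0.09), Fanci (-1.50) and the recombination mediator Brca2 (-1.47). The reference dye was the larger part for 17 of the 20, and Brca2 rose there by 1.19 (adjusted p = 0.00043). The shares called were 61.1% of the histones and 65.0% of the repair genes, against 17.6% of all genes. Without 8-week replicate 2, 4 of the 18 histones and 8 of the 20 repair genes passed. Within scanner 2 and scanner 3, 2 and 3 histones and 3 and 7 repair genes passed.

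**Figure D4:**
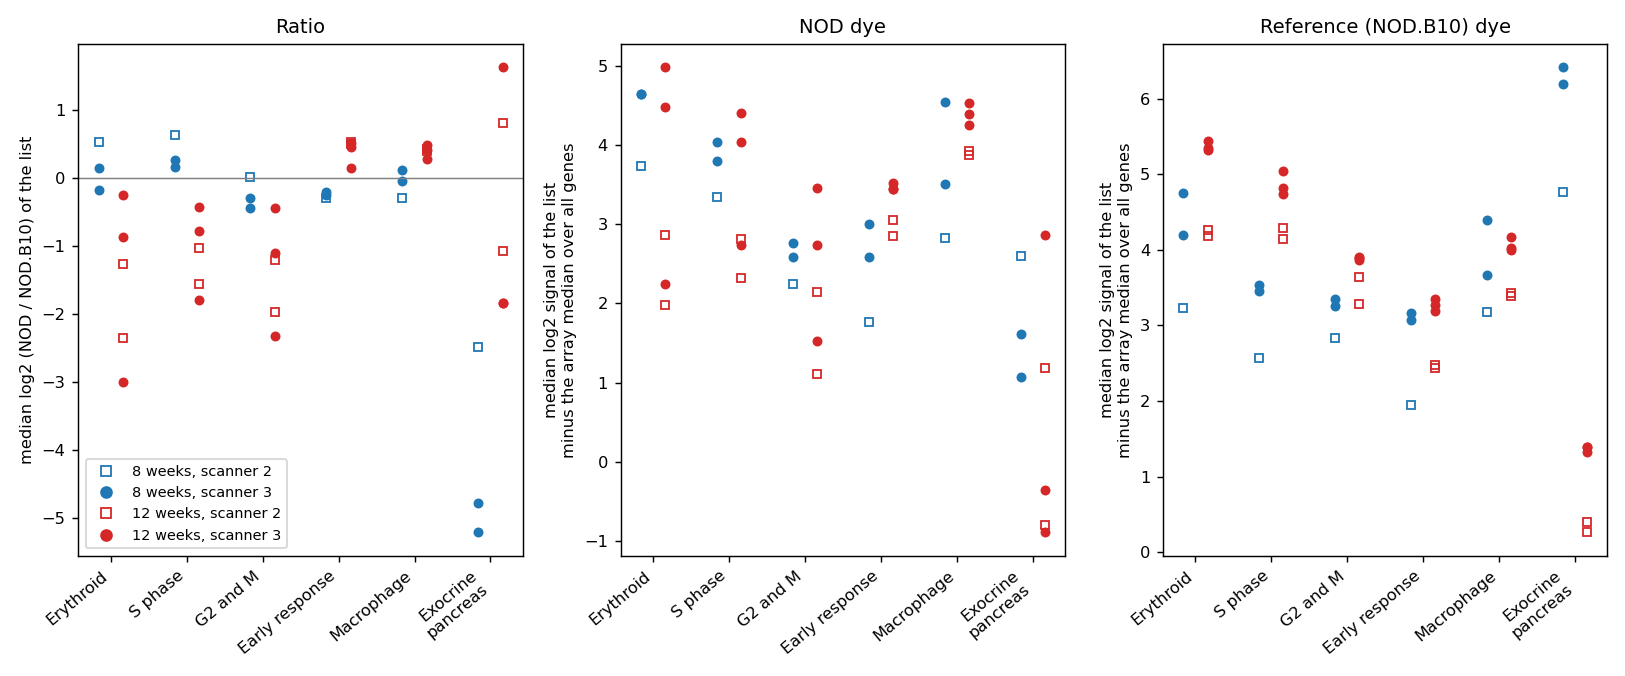
Median log2 ratio of 6 gene lists on each array (left), and their median log2 signal in the NOD dye (middle) and the reference dye (right), minus the array's median over all genes. For the erythroid, S phase and G2 and M lists the NOD dye spreads widely at 12 weeks, while the reference dye within each scanner (open squares, filled circles) is higher at 12 weeks than at 8; for the exocrine list the reference dye is far lower at 12 weeks.

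The immediate early genes, which answer a stimulus within minutes, and the NF-kB targets were taken as 1 list. Of 38 tested, 17 rose and 1 fell, a share of 47.4% against 17.6% of all genes, with a median change of 0.63. Dusp1, a phosphatase that ends MAP kinase signals, had ratios of -1.60, -1.76 and -2.21 at 8 weeks and -0.58, -0.12, 0.19, 0.07 and -0.11 at 12 weeks (change 1.75 ± 0.32, adjusted p = 0.00062). Fos, a subunit of AP-1, had ratios of -0.49, -1.45 and -1.23 and then 0.92, 0.57, 0.47, 0.72 and 0.59 (change 1.71 ± 0.34, adjusted p = 0.0013). Tnfaip3, the NF-kB inhibitor A20, had ratios of -0.86, -0.83 and -0.82 and then -0.17, 0.81, 1.47, 0.51 and 0.45 (change 1.45 ± 0.29, adjusted p = 0.0013). The ages did not overlap for any of these 3. Junb rose by 1.36, Ier3 by 1.32, Klf4 by 1.28, Jun by 1.21 and Il1b by 1.13. Gadd45a fell by 0.59, and the cytokine gene Tnf did not pass (-0.62).

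Here the NOD dye was the larger part, for 27 of the 38 genes, with a median of 0.85 against 0.34 in the reference dye. In the NOD dye 8 members rose, of the 20 genes on the whole array that did (5 with median scaling, 3 with the scan campaign as a block). Fos rose there by 2.32 ± 0.30 (adjusted p = 0.0027), Dusp1 by 2.02 ± 0.37 (adjusted p = 0.031) and Junb by 1.75 ± 0.34 (adjusted p = 0.039), and all 3 passed with median scaling too (adjusted p = 0.0064, 0.024 and 0.047). The list's median in the NOD dye was 3.00, 1.76 and 2.59 at 8 weeks and 3.44, 3.44, 3.05, 2.85 and 3.52 at 12 weeks, higher at 12 weeks within each scanner. Within scanner 2, 3 of the 38 passed in the ratio (list median 0.73), and within scanner 3, 10 passed (0.53). These genes also respond to how tissue is handled before RNA is taken, and no record of handling is given in the sources used here, so its part was not tested.

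The cyclic AMP response element TGACGTCA, which reads the same on both strands, was in the promoters of 3 of 29 early response genes (10.3%), against 478 of 27025 genes (1.77%). Of members that changed, Dusp1 held it within 150 bases of the start, at chr17:26508473-26508622 on the minus strand, beginning 143 bases before the start (motif in capitals).
Dusp1: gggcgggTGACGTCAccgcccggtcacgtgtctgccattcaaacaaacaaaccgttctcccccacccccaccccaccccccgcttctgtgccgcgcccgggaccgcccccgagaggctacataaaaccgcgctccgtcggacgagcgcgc

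Of 26 macrophage genes, 12 rose and 1 fell, and the median change was 0.56. Cd14, the lipopolysaccharide co-receptor, went from -1.33, -1.30 and -1.48 to -0.59, -0.23, 0.95, 0.05 and -0.10 (change 1.39 ± 0.32, adjusted p = 0.0038). Cd163, the receptor that clears hemoglobin, went from -0.04, -0.56 and -0.31 to 0.91, 0.88, 0.87, 0.69 and 0.78 (change 1.13 ± 0.19, adjusted p = 0.00036). The ages were apart for both genes. C1qc rose by 0.99 and the colony stimulating factor receptor gene Csf1r by 0.64, while Ccr2, the receptor of inflammatory monocytes, fell by 0.89. This list had 8 calls without 8-week replicate 2. Within scanner 2, 4 passed, and within scanner 3, 3 passed. In neither dye did a macrophage gene rise by limma's adjusted p. At an unadjusted p under 0.05, 6 were higher in the NOD dye, against 1393 of 25148 genes. In the reference dye 2 fell by the adjusted p, against 3.21% of all genes.

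Red pulp macrophages gave a mixed picture. Spic, the factor that specifies them, had ratios of -0.03, -0.79 and -0.54 and then 1.06, 0.79, 0.81, 1.05 and 1.13 (change 1.42 ± 0.20, adjusted p = 5.3e-05), and both of its probes rose. Il18bp, which neutralises interleukin 18, rose by 1.40, Vcam1 by 0.75, the heme oxygenase gene Hmox1 by 0.51 and the iron exporter gene Slc40a1 by 0.39. Blvrb, biliverdin reductase B, fell by 1.46, and it rose in the reference dye by 1.37 (adjusted p = 0.011). Of 18 tested, 6 rose and 2 fell, a share of 44.4% against 17.6% of all genes. With any 1 of the 8-week arrays left out, 5 of these passed, and with the campaign block 3.

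Of 16 complement genes, 8 rose and none fell (median 0.51), among them C1qa and C1qc, which macrophages make, Cfp, properdin (0.89), C2 (0.83) and C3 (0.79). Cfd, also an adipocyte gene, had the highest value, 2.33 ± 0.75 (adjusted p = 0.034), with ratios of 0.13, -1.70 and -3.51 and then -0.02, 2.08, 0.61, 0.18 and 0.32 that overlapped between the ages. Of 25 chemokine genes, 8 rose (median 0.36): after Ccl24 these were Cx3cl1 (0.94), Cxcl12 (0.93), Cxcl16 (0.89, with its other probe unchanged at 0.00), Ccl17 (0.71), Ccl9 (0.69) and the follicle chemokines Cxcl13 (0.68) and Ccl19 (0.59). Of the complement genes, 3 passed without 8-week replicate 2, and 5 without 8-week replicate 3 or without 12-week replicate 3. Of the chemokines, 5 passed without 8-week replicate 2 or 3. With the scan campaign as a block, 3 complement and 2 chemokine genes passed.

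B cell genes moved in both directions. Of 23 tested, 4 rose and 4 fell, a share of 34.8% against 17.6% of all genes, and the median change was 0.09. The receptor inhibitor gene Cd22 fell by 1.26, with its other probe at -0.29, and Bank1, a scaffold of B cell receptor signalling, fell by 1.27. Cd83, an activation marker, rose by 1.15 and the adaptor gene Blnk by 0.92. Within scanner 3, 4 of the 23 passed, and the list median within scanner 2 was 0.06. Plasma cell genes rose for 7 of 15 tested, a share of 46.7% against 17.6% of all genes, and none fell (median 0.42). Jchain, which joins IgA and IgM units, had ratios of -0.91, -0.92 and -0.57 and then 0.48, 0.44, 0.30, 0.39 and 0.31 (change 1.19 ± 0.26, adjusted p = 0.0024), and Prdm1, the plasma cell master regulator, rose by 0.91. The plasma cell count was 2 without 8-week replicate 2, and 4 without 8-week replicate 3 or 12-week replicate 5. Within scanner 3 it was 0 by limma (6 rose at an unadjusted p under 0.05, against 2811 of 25148 genes). The plasma cell list median within scanner 2 was 0.34.

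Few T cell genes changed. Cd3e changed by -0.02 and Cd4 by -0.04, and neither passed. Of 27 tested, 3 rose (11.1%), among them Cd8a (0.87, its probes from -0.14 to 0.87) and the homing receptor gene Ccr7 (0.74). The T cell count was 8 with only the 8 arrays, and 1 without any single array other than 12-week replicate 1. Of 19 genes of regulatory and activated T cells, 3 rose, a share of 15.8% against 17.6% of all genes: Tnfrsf4, OX40, by 1.24 ± 0.18 (adjusted p = 6.9e-05), Pdcd1, PD-1, by 0.99, and Tnfrsf18, GITR, by 0.89. These calls were lost within scanner 2 and with the campaign block. Foxp3, which defines regulatory T cells, did not pass (0.33). In the reference dye Tnfrsf4 fell by 0.78, Tnfrsf18 by 0.82 and Pdcd1 by 0.84, with NOD dye changes of 0.39, 0.01 and 0.08. With median scaling these falls did not pass (adjusted p = 0.28, 0.36 and 0.33).

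NK cell genes fell for 7 of 29 tested, and Clec2d alone rose (median -0.33), a share of 27.6% against 17.6% of all genes. The granzyme gene Gzma went from 0.996, 0.225 and 0.187 to -1.04, -0.75, -0.74, -1.06 and -1.16 (change -1.42 ± 0.31, adjusted p = 0.0029), and Ncr1, the activating receptor NKp46, changed by -1.26. Both moved in the reference dye, where Gzma rose by 1.66 (adjusted p = 0.00081) and Ncr1 by 1.18 (adjusted p = 0.03), while their NOD dye changes were 0.17 and -0.15. The reference dye was the larger part for 23 of the 29. The Ly49 receptor genes, among them Klra7 (-0.91), are near copies of each other, so a probe may read more than 1. Without 8-week replicate 1, 3 of the falls passed. Within scanner 3, 1 fall passed by limma (9 at an unadjusted p under 0.05, against 2629 of 25148 genes). The list median within scanner 2 was -0.30.

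Of 24 neutrophil genes, 1 rose and 2 fell in the ratio, a share below the 17.6% of all genes, and 8 rose in the reference dye (5 with median scaling). The 3 ratio calls were lost without 8-week replicate 2 or 3, 1 was made without 8-week replicate 1, 12-week replicate 3 or 12-week replicate 5, and 6 without 12-week replicate 1. S100a8, a calcium-binding protein of neutrophils, rose in the reference dye by 1.12 (adjusted p = 0.0023), the antimicrobial gene Camp by 0.94 (adjusted p = 0.026) and the lactoferrin gene Ltf by 1.52 (adjusted p = 0.0005). Their NOD dye changes were 0.51, 0.55 and 0.43, and only Ltf passed in the ratio (-1.03). Of 21 megakaryocyte and platelet genes, 6 (28.6%) fell and none rose, among them the integrin gene Itga2b (-0.79), Treml1 (-0.78) and F13a1 (-0.68). Their count was 3 without 8-week replicate 1, 12-week replicate 4 or 12-week replicate 5. By limma, 0 passed without 8-week replicate 2 or within scanner 3. At an unadjusted p under 0.05 on scanner 3, 6 fell and 2 rose, against 2629 and 2811 of 25148 genes. The list median was -0.62 within scanner 2 and -0.03 within scanner 3. Of 15 stem and progenitor genes, Hlf (1.62), Gata2, Procr and Cd34 rose and Hoxa9 (-1.27) and Myb (-1.20) fell. Myb rose in the reference dye by 1.83 ± 0.21 (adjusted p = 1.1e-05) with a NOD dye change of 0.56.

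Structural genes came next. Tagln, of smooth muscle, had ratios of 0.65, 0.58 and 0.68 and then 1.73, 1.82, 1.62, 2.25 and 2.65 (change 1.38 ± 0.22, adjusted p = 0.00021), with its other probe at 0.51. Of 21 smooth muscle and reticular cell genes, 6 (28.6%) rose and none fell, and Pdpn, a marker of reticular cells, changed by 1.20. The smooth muscle actin gene Acta2 did not pass (0.39), and its 5 probes ran from -1.40 to 1.62. Cald1 rose by 1.08 on its brightest probe but had -1.53 on the other. Of 30 stroma genes, 7 rose and 2 fell: the growth factor receptor genes Pdgfrb (1.33 ± 0.17, adjusted p = 2.7e-05) and Pdgfra (1.30) led the rise, and the matrix genes Fn1 (-1.07) and Col5a1 (-0.95) fell. The share called was 30.0% of the stroma genes, against 17.6% of all genes, and 5 passed without 8-week replicate 2 or 3. Of 22 endothelial genes, 6 rose, with Lyve1 (1.39) and Robo4 (0.98) highest, and 3 fell, Ramp2 (-0.97, other probe 1.14), Tie1 (-0.77) and Kdr (-0.57). This was 40.9% of the list, against 17.6% of all genes. With the scan campaign as a block, 1 smooth muscle, 3 stroma and 2 endothelial genes passed. The endothelial count was 3 without 8-week replicate 2, 4 without 8-week replicate 1, and 5 without 8-week replicate 3 or 12-week replicate 5.

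Genes of fat and of the exocrine pancreas are markers of tissues next to the spleen. Of 18 adipose genes, 6 rose and none fell (median 0.91), with Fabp4, a fatty acid carrier, at -0.60, -1.84 and -2.23 and then -0.59, 0.43, -0.01, -0.44 and -0.47. The summed adipose signal was 38.9 to 69.0 at 8 weeks and 28.5 to 38.9 at 12 weeks in the reference dye, and 21.2 to 61.7 and 34.0 to 70.1 in the NOD dye. The share of adipose genes called was 33.3%, against 17.6% of all genes. The adipose count was 2 without 8-week replicate 2 or 3, and 1 with the campaign block. Of 30 exocrine pancreas genes, 29 fell in the reference dye, with a median of -4.79. In the ratio 3 passed (median 3.62), a share of 10.0% against 17.6% of all genes. The summed NOD dye signal ran from 8.82 to 263 among the 12-week arrays. In the ratio, 13 exocrine genes passed with only the 8 arrays, and 1 without 8-week replicate 1, 8-week replicate 3 or 12-week replicate 3. Their part in the changes of other lists was not tested.

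Of 25 heat shock and unfolded protein genes, 10 fell and 3 rose: the mitochondrial chaperone gene Hspd1 (-1.09), Hsp90aa1 (-1.05) and Hspa8 (-1.01 ± 0.14, adjusted p = 6.2e-05) were lowest, and Herpud1 (0.97) was highest. This was 52.0% of the list, against 17.6% of all genes. Hspa8 had ratios of 0.71, 0.67 and 0.97 and then -0.21, -0.27, -0.25, -0.24 and -0.18, and it rose in the reference dye by 1.19 (adjusted p = 0.0081). Its 12-week arrays differed by less than 0.1. Of 39 respiratory chain genes, 13 (33.3%) fell and none rose (median -0.32), and the reference dye was the larger part for 31. With the scan campaign as a block, 1 heat shock and 1 respiratory chain gene passed, and all 12 ribosomal protein calls given next were lost. The respiratory chain count was 4 without 8-week replicate 1, 6 without 8-week replicate 2, 12-week replicate 4 or 12-week replicate 5, and 7 without 8-week replicate 3 or 12-week replicate 3. Of 52 cytosolic ribosomal protein genes, 11 rose and 1 fell (median 0.17), with Rps27 at 0.80. The share called was 23.1%, against 17.6% of all genes. By limma, 15 of the 52 fell in the reference dye, against 3.21% of all genes, and 0 with median scaling. At an unadjusted p under 0.05, 22 fell in that dye, against 3173 of 25148 genes. The ribosomal count was 4 without 8-week replicate 2 and 7 without 8-week replicate 3, 12-week replicate 2 or 12-week replicate 5. Of 20 cholesterol synthesis genes, 3 fell, among them Fdps (-0.82), and Dhcr7 (0.48) rose, a share of 20.0% near that of all genes. Fdps rose in the reference dye by 1.15 ± 0.14 (adjusted p = 6.4e-05).

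Of 31 interferon-induced genes, 5 fell and 1, Trim30a (0.74), rose, and the median was -0.23. This share of 19.4% was near the 17.6% of all genes. Isg15, a ubiquitin-like protein, went from 0.59, 0.41 and 0.08 to -0.39, -1.28, -1.21, -1.45 and -1.67 (change -1.56 ± 0.27, adjusted p = 0.00043). Rsad2, viperin, changed by -1.61 with overlapping ages, Ddx58 by -0.88 (its 4 probes from -0.88 to 0.08) and Usp18 by -0.82. Mx1 and Ifit1 did not pass. Without 8-week replicate 2, 2 of the 31 passed, and within each scanner 1 passed. Of the MHC genes, the class II regulator Ciita fell by 1.01, the only class II gene of 11 that passed, and this call was lost without 8-week replicate 2 or 3 or 12-week replicate 3 and within either scanner. Of 19 class I genes, H2-M3 (0.92) rose and H2-Q2 (-1.36), Tap1 (-0.89) and H2-T24 (-0.63) fell, a share of 21.1%, and all 4 calls were lost with the campaign block. The strains differ in this complex by design, and class I genes are near copies of each other, so a probe may read more than 1 gene or bind the 2 strains unequally. The class I count was 1 without 8-week replicate 1 and 2 without 8-week replicate 3.

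Of 21 candidate genes for type 1 diabetes, 3 rose and none fell, with a median of 0.14. This share of 14.3% lay below the 17.6% of all genes. After Ptpn22 these were Cd38, an ectoenzyme of lymphocytes, with ratios of -0.43, -0.54 and -0.39 and then 0.54, 0.85, 0.71, 0.66 and 0.63 (change 1.13 ± 0.18, adjusted p = 0.00016), and the adhesion molecule gene Icam1 (0.68). The NOD dye change of Cd38 was 1.17 (adjusted p = 0.081) and its reference dye change 0.10. The ages did not overlap for any of the 3. Ctla4, Il2ra, Il2 and Ptpn2 did not pass, with changes of 0.10, -0.46, 0.14 and 0.04.

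**Figure D5:**
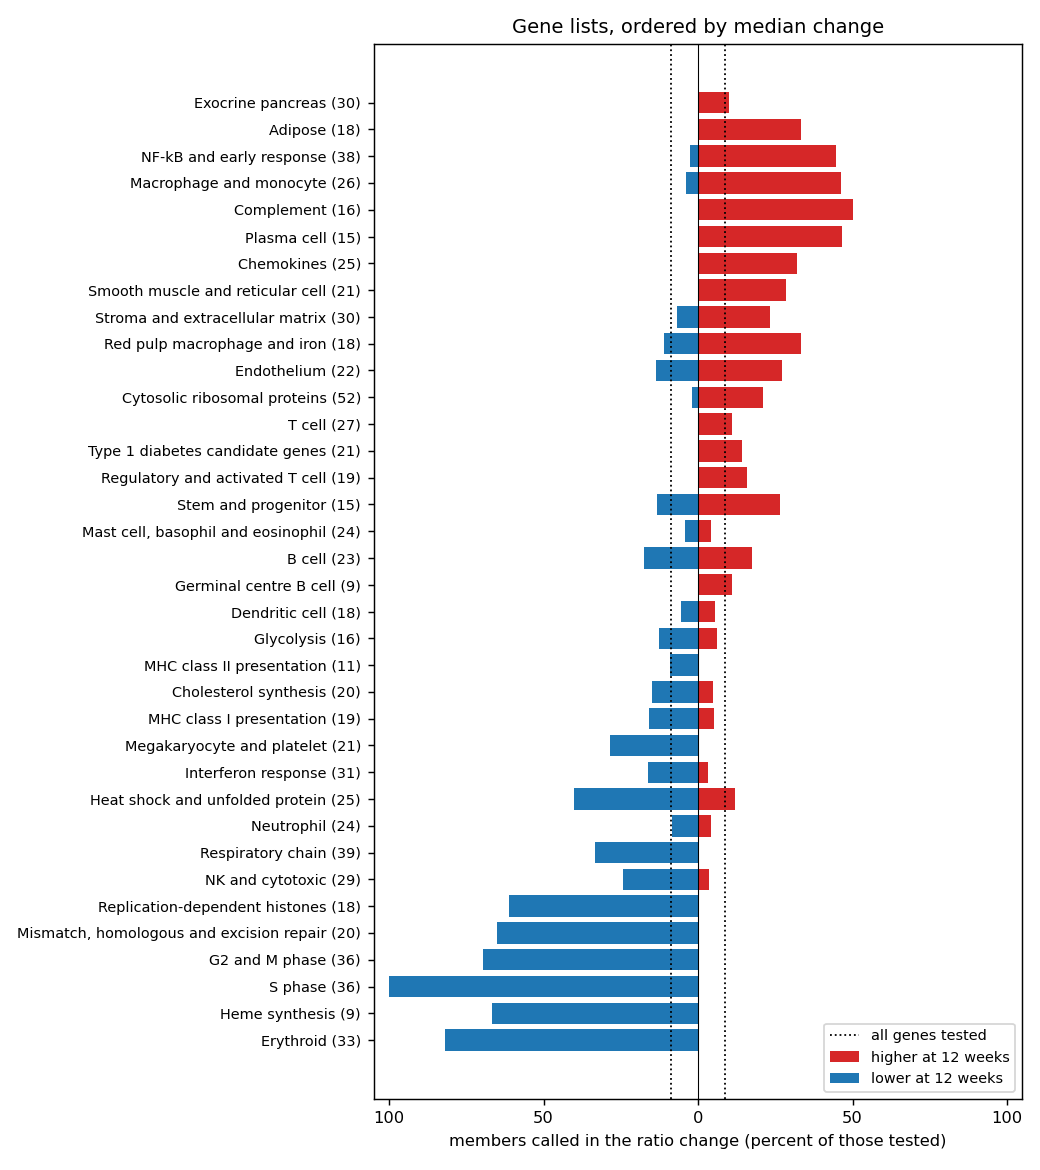
Share of tested members of each of 36 gene lists that rose (red, to the right) or fell (blue, to the left) in the ratio from 8 to 12 weeks, in percent, with the number tested in brackets and the lists ordered by median change. Dotted lines give the shares over all genes, 8.78% and 8.79%; the S phase list reaches 36 of 36 lower, and the complement list 8 of 16 higher.

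Some genes had a dye not well above background on every array of an age, and for these only a bound on that dye can be given. It sets the mean of the brighter age against, on each array, the higher of the lowest signal well above background and the probe's own. Reg3b, an exocrine pancreas gene, was at least 16.2-fold higher at 8 weeks than at 12 in the reference dye. In the NOD dye, Olfr1023 was at least 4.02-fold, Slc24a1 at least 3.66-fold and Nox1 at least 3.14-fold higher at 8 weeks. Lrch2 was at least 1.32-fold higher at 12 weeks in that dye, with 4 of 5 arrays above background, and Fam184a at least 1.26-fold higher. In the ratio these 6 genes passed with adjusted p from 0.00092 to 0.023.

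Across the other ages, the 12-week values of the red cell and division lists were the lowest. The median erythroid ratio by age was -0.06 at 10 days, -0.28 at 4 weeks, 0.21 at 8, -1.61 at 12, -0.62 at 16 and 1.08 at 20 weeks. For the S phase list it was -0.19, -0.58, 0.37, -1.15, -0.47 and 0.12, and for the early response list 0.32, -0.14, -0.24, 0.46, -0.07 and 0.04. These medians come from different scan days, and the differences between ages other than 8 and 12 weeks were not tested here.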

How the data were processed

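Spleen RNA of NOD (Cy3) and NOD.B10 (Cy5) was hybridised to 2-colour Agilent whole mouse genome arrays; it was extracted with RNeasy (Qiagen) and amplified with an Agilent kit, per the labels' protocols. The deposited scanner files hold spot intensities that Agilent Feature Extraction (8.5 per the submitters' processing notes) had corrected for background and normalised between the dyes, per the file headers. The authors' deposited value table holds log10 of NOD over NOD.B10, per the labels; its columns have a median of 0, and it equals minus the LogRatio of the scanner files to within 5e-05. Other marks in the deposited files, per the file headers, flag control spots, outliers, saturation and signals above background.

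From these, log2 of the green over the red processed signal was taken per spot, control and outlier spots were left out, spots of a probe were averaged, and a probe was kept where, for some age, all arrays had it well above background in green or all in red. The brightest probe stood for a gene. Names were updated through RefSeq (GRCm38.p6): 22064 probes matched by accession, 135 through another accession, 5062 by symbol and 4396 by synonym, and 9517 kept the array's identifier. limma 3.58.1 in R 4.3.3 fitted 1 mean per age over all 27 arrays, two-sided, with Benjamini-Hochberg adjustment over all 25148 genes at 0.05. On simulated data with changes of 1 and 2 log2 units, in 100 genes each, it recovered 57% and 90%, with 7 false calls. The simulated spread was independent between arrays and held no scanner, campaign or reference effect. These numbers therefore do not give the false calls in the real data. The number of arrays limits the precision. Single-dye fits used log2 of the signal minus the 75th percentile of the array.

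Named genes were the 12 highest and 12 lowest (called, both dyes above background and unsaturated on all 8 arrays, ages apart, same sign within the shared scan campaign). Added to these were up to 4 called members of each list with 3 or more calls or a median of at least 0.5 in size, marker genes and 3 bounds in each direction. Some genes that this rule names are not reported here. Other genes named from a list were chosen after their values were seen. The members and the lists were chosen with earlier results of these data known. Replicate numbers did not pair arrays of the 2 ages (correlations of deviations -0.083, -0.026 and 0.0075).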

Additional observations from a re-analysis of the deposited data

Results flagged for a closer look

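Among the 5 arrays of 12 weeks, the highest or lowest value was checked for its distance from the rest in 208 groups (170 genes and 38 lists), and 8 stood apart (3.85%); chance gives about 1 in 20. In the ratio, Trim37 was lowest on replicate 5 at -2.60 (the others -2.07 to -1.92), and Mcpt8, a basophil protease, was lowest on the same replicate at -4.27 (-2.32 to -1.71). Replicate 1 was lowest for Cald1 at 0.39 (0.95 to 1.01) and for the median of the NF-kB and early response list at 0.14 (0.45 to 0.54). It was highest for Slpi at 1.61 (0.84 to 1.03) and for Gcg, the glucagon gene, at 0.33 (-0.30 to -0.14). Camp was lowest on replicate 3 at -1.13 (-0.56 to -0.38), and Plin4, a lipid droplet protein, was highest on replicate 2 at 1.36 (0.21 to 0.54).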

How the results depend on the processing

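The count of 4419 genes in the ratio was 957 with the scan campaign as a block, 876 within scanner 2, 1284 within scanner 3 and 1138 with a change of at least 1 log2 unit, and 2566 to 4514 with 1 array left out. The other alternatives gave 3568 to 5643: only the 8 arrays, the scanner as a block, centring, other filters, the mean of the probes, the value table, and normexp with loess. The replicate block gave 3873. The campaign block takes the age change from the same arrays as scanner 2, so it is not a check apart from scanner 2. The 44 genes of the NOD dye became 263 with the campaign block, 546 with the scanner block, 9 with the replicate block and 14 with median scaling (71.4% higher, against 45.5%), and 5 to 88 with 1 array left out. The 1546 of the reference dye became 2394, 5702, 1166 and 386 (71.0% higher, against 47.9%), and 996 to 1641. The cause was not tested. Within the shared campaign, 876 became 1604 where both dyes had to be above background, and 184 or 86 without 12-week replicate 3 or 4. The reference dye's larger share of 48.1% ran from 38.6% to 50.8%. With the mean of all probes, Cald1 turned to -0.23 and Ramp2 to 0.0832, since their probes differ in sign. Of 148 named genes that passed, 98 no longer did with the campaign block, 37 without 8-week replicate 2 and 22 with only the 8 arrays; of the 24 genes with the largest changes these numbers were 8, 1 and 2. A slide block was not run, since each of the 27 arrays is on a slide of its own, and the scanner alternatives were chosen after seeing the file headers. Between 51.8% and 79.2% of spots per array were above background in the reference dye, which limits what dim genes can show.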
